A study of Mus musculus with 6 samples.

Results

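Fibronectin (Fn1) was described exon by exon in mouse aortic valves, at the level of the gene and of each exon that the deposited values cover. Fn1 was 1 of 46983 genes in the gene table. It was chosen by name, with its fall between the ages and its exon values already known, and all of its rows with unique coordinates in the exon table were taken, so every comparison of Fn1 between the ages is a description and carries no test. The exon table held 448141 rows, of which 102 belonged to Fn1 and 73 of these had coordinates of their own. The 73 rows covered 46 exons, numbered here 5′ to 3′ along the annotated transcript with the most exons, and 43 of the rows overlapped another row because transcripts share an exon but differ at its ends.

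RNA was sequenced from aortic valves of wild type C57BL/6J mice at postnatal day 2 (PND2), when the leaflets are still growing and remodeling, and at 4 months, when they are mature. There were 3 libraries per age, labelled as biological replicates, and each was made from a pool of valves from 5 to 6 mice, so the spread between libraries is a spread between pools. No treatment, transgene or mutation was involved at either age. The deposited values are RPKM, the reads on a gene or exon divided by its length and by the reads of the library. Library totals were inferred from these values and ran from 29260736 to 38994657 at PND2 and from 23810507 to 37350916 at 4 months.

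Fibronectin is a large secreted glycoprotein that cells assemble into fibrils through integrin receptors, and the fibrils hold collagens, fibrillins and latent TGF-β. It is built from repeated modules, and its pre-mRNA is spliced in alternative ways at the extra domain B (EDB) exon, the extra domain A (EDA) exon and the variable (V) region. EDB and EDA each encode a whole type III module and are either kept or skipped, whereas the V region is cut to different lengths at a splice site inside its exon. Plasma fibronectin, made by hepatocytes, lacks EDA and EDB, whereas the cellular form made in tissues contains them in varying amounts and is known for its prominence in developing and repairing tissue.

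Fn1 lies on the minus strand of mm10 at chr1:71585520-71653200. Of its 9 annotated protein-coding transcripts, 7 were full length. EDB was exon 25, 273 bases or 91 codons, at chr1:71613763-71614035, and was part of 1 of the 7. EDA was exon 33, 270 bases or 90 codons, at chr1:71603660-71603929, and was part of 4 of the 7. Apart from EDB and EDA, no exon was skipped whole in some of the 7 transcripts and kept in others. The sequences below are those of the 2 exons whose use changed and of the junctions made when they are skipped, read 5′ to 3′ from the GENCODE M21 transcripts of the same build. Capitals mark the first and last 15 bases of an exon, and in a junction the first 15 bases of the exon that follows the skipped one.
EDB exon: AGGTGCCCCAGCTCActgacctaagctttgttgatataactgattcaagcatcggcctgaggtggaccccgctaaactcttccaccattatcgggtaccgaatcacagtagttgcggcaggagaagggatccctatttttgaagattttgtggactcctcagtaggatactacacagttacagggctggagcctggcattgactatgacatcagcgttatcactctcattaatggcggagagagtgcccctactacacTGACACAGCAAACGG
EDB skipped junction: ataccgttgtcccagCTGTCCCTCCTCCCA
EDA exon: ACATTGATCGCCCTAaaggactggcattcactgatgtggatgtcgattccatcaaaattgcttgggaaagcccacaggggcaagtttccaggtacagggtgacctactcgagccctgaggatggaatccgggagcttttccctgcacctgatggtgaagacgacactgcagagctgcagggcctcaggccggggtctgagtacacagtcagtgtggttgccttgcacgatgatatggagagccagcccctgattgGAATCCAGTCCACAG
EDA skipped junction: aaactgcagtgaccaCCATTCCTGCGCCCA

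Both exons are whole multiples of 3 bases, so skipping them leaves the reading frame intact. That was also true of 33 of the 42 other internal exons, whose lengths ran from 87 to 467 bases with a median of 148.5 and of which 2 were longer than EDA. GC content was 49.5% in EDB and 54.8% in EDA, both inside the range of 48.2 to 60.6% of those 42 exons (median 53.9%).

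Fn1 as a whole was lower in the mature valve. Its gene level was 497, 704 and 591 RPKM in PND2 replicates 1, 2 and 3, and 176, 202 and 268 RPKM in the 4-month replicates. Every PND2 library lay above every 4-month library. The mean fell from 597 ± 104 to 216 ± 47.3 RPKM (SD, n = 3 per age), a ratio of 2.77 in favor of PND2 and a log2 ratio of -1.47. The level rested on 201941 to 250977 reads per library at PND2 and on 56216 to 90681 at 4 months. Among 21930 protein-coding genes Fn1 ranked 139th, 90th and 127th at PND2 and 484th, 385th and 291st at 4 months, so it stayed a highly expressed gene at both ages. In whole valve tissue, fewer Fn1-expressing cells and less Fn1 RNA per cell cannot be told apart.

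The EDB exon fell far more than the gene. Its level was 173, 258 and 197 RPKM in the PND2 libraries, from 1839, 2151 and 1572 reads. At 4 months it was 18.5, 11.1 and 25.8 RPKM, from 189, 72 and 204 reads. The lowest of these values, 11.1 RPKM in 4-month replicate 2, had an exact Poisson 95% interval of 8.67 to 13.9 RPKM. That interval covers counting error only and takes each read as independent. It is too narrow if both reads of a pair were counted. The ages were thus separated by much more than the spread within them, with means of 209 ± 44.1 and 18.5 ± 7.37 RPKM and a ratio of 11.3.

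The EDA exon fell in the same direction. Its level was 227, 346 and 273 RPKM at PND2, from 2393, 2854 and 2155 reads, and 27.5, 38.3 and 35.3 RPKM at 4 months, from 277, 246 and 276 reads. No 4-month library came near a PND2 library. The means were 282 ± 60.1 and 33.7 ± 5.58 RPKM, a ratio of 8.38. Across the 44 other exons, the ratio of mean RPKM between PND2 and 4 months ran from 2.47 to 3.14, near that of the gene.

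To separate the use of an exon from the level of the gene, each exon was expressed as its relative use, which is its RPKM divided by the median RPKM of all other Fn1 rows that do not overlap it, within the same library. A relative use of 1 is that of a typical Fn1 row. EDB had a relative use of 0.285, 0.275 and 0.255 at PND2 and of 0.0797, 0.0413 and 0.0749 at 4 months. The ages did not overlap, and the mean fell from 0.272 ± 0.0150 to 0.0653 ± 0.0209, which is 4.16-fold or a log2 ratio of -2.06. EDA had a relative use of 0.375, 0.369 and 0.354 at PND2 and of 0.118, 0.143 and 0.103 at 4 months. Here too the ages did not overlap, and the mean fell from 0.366 ± 0.0107 to 0.121 ± 0.0202, which is 3.02-fold or a log2 ratio of -1.60. The PND2 libraries lay close together for both exons although their Fn1 levels differed, and the 4-month libraries were more spread in proportion to their mean.

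The exons on either side did not share the fall. Exon 24, upstream of EDB, had a mean relative use of 0.92 at PND2 and 0.93 at 4 months, and exon 26, downstream of it, had 1.14 and 1.11. Exon 32, upstream of EDA, stood at 1.54 at both ages, and exon 34, downstream of it, at 1.53 and 1.47. Exons 19 and 28 have the same lengths as EDB and EDA (273 and 270 bases) and are kept in every full-length transcript. Their mean relative use was 0.72 and 0.68 for exon 19 and 0.98 and 1.00 for exon 28.

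**Figure D1:**
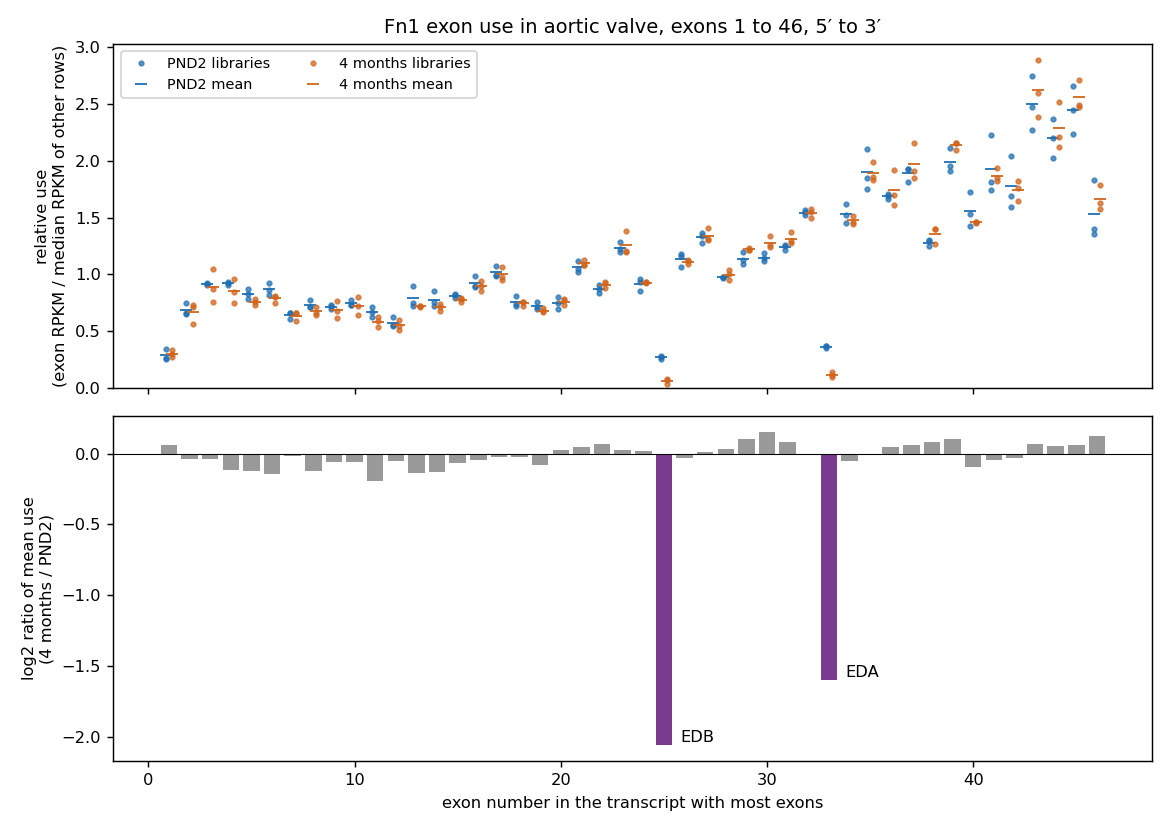
Upper panel, relative use of each of the 46 Fn1 exons (vertical axis) by exon number from 5′ to 3′ (horizontal axis), with points for the 3 PND2 (blue) and 3 4-month (orange) libraries and dashes for their means. Lower panel, log2 ratio of the mean relative use at 4 months over PND2 for the same exons. EDB (-2.06) and EDA (-1.60) stand far below the other 44 exons, which lie between -0.19 and 0.15.

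Over the 44 other exons the log2 ratio of relative use ran from -0.19 to 0.15, with a median of -0.02, and none changed 1.5-fold. An exon was called changed when its mean relative use differed at least 1.5-fold and the ages did not overlap. All 73 Fn1 rows passed the filter on low values, and 2 rows (EDB and EDA) were called lower and 0 higher, where 3.02% of 213693 exons tested in all genes were called lower and 3.15% higher. The relative use of Fn1 rows in this contrast was known when the gene was chosen, so nothing is read from that count. Among 8785 annotated cassette exons, those kept in some transcripts and skipped in others, 5.24% were called lower and 4% higher. The log2 ratio of EDB was undercut by 779 of the tested exons and by 102 of the cassette exons, and that of EDA by 1607 and 176. No called row lay near the threshold. The closest row that was not called was a long row of 987 bases, which runs from exon 32 into the intron before EDA, with a log2 ratio of -0.26. Short rows inside exons 6 and 13 followed at -0.21 and -0.20.

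The remaining shifts were small. Without a fold threshold, 3 of the 44 exons (6, 13 and 15) were lower at 4 months with no overlap between the ages and 3 (29, 30 and 31) were higher, while 38 overlapped. Over all tested exons 6.92% were lower and 7.18% higher by that rule. The lowest ratio among the 44 belonged to exon 11, at 0.670 ± 0.0444 and 0.586 ± 0.0435 (log2 ratio -0.19, ages overlapping). The highest belonged to exon 30, at 1.15 ± 0.0354 and 1.28 ± 0.0519 (log2 ratio 0.15). Exons 29, 30 and 31 lie next to each other between EDB and EDA. The first exon had a mean relative use of 0.291 and 0.303, and the last exon 1.53 ± 0.264 and 1.66 ± 0.109.

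Relative use rose along the transcript toward the 3′ end at both ages, from 0.291 in the first exon to a highest mean of 2.49 at PND2 and from 0.303 to 2.62 at 4 months. A ratio between the ends left out the first and the last exon. The mean RPKM of the next 5 exons at the 3′ end was divided by that of the next 5 at the 5′ end. It was 2.90, 2.47 and 2.22 in the PND2 libraries and 2.66, 2.36 and 3.22 in the 4-month libraries. The ages overlapped in this slope. EDB is exon 25 and EDA exon 33 of 46. The part of the slope in the use of any exon was not tested. The relative use of the exons that flank EDB and EDA is given above. The first exon also lies under an antisense gene, Apol7d, at chr1:71652837-71662843 on the plus strand. The level given for Apol7d was 20.5, 32.4 and 34.8 RPKM at PND2 and 9.54, 11.9 and 12.6 RPKM at 4 months. A row of the first exon had 161, 262 and 283 RPKM at PND2 and 70.1, 91.6 and 102 RPKM at 4 months. The libraries stood in the same order in both. Whether the exon counting used strand is not given in the sources used here. The part of Fn1 reads in the level of Apol7d was not tested.

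A relative use of 0.272 is not a share of transcripts, since RPKM varies along the gene. A share was therefore estimated from the neighbors: the reads of EDB or EDA divided by the exon's length plus 47 bases, over the mean of the same quantity in the exons on either side. The 47 bases allow for reads that reach into an exon across a junction, and this estimate was added after the data were seen. It has no junction reads behind it, so it gives a share of the neighboring exons' level, not a count of spliced molecules. Reads of RNA that still holds the introns were not taken out, and their part was not tested. The covered stretch of the intron upstream of EDA had means of 47.4 RPKM at PND2 and 5.66 RPKM at 4 months. For the introns that flank EDB there was no deposited row.

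By this estimate EDB was present at 28.9%, 30.9% and 25.9% of the neighboring level in the PND2 libraries and at 8.38%, 4.36% and 7.94% at 4 months. EDA was present at 26.8%, 27.6% and 27.3% at PND2 and at 9.02%, 10.9% and 7.73% at 4 months. The PND2 values of EDB and EDA thus lay in the same range, with means of 28.6 ± 2.54% and 27.2 ± 0.375%. The 4-month means were 6.89 ± 2.20% for EDB and 9.20 ± 1.57% for EDA, and the libraries of the 2 exons overlapped at that age. By this estimate the larger part of Fn1 RNA was without each exon at both ages.

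The share can be turned into a level with and a level without the exon, scaled as RPKM is but with the adjusted length. Fn1 with EDB was 179 ± 37.6 at PND2 and 15.8 ± 6.29 at 4 months, an 11.3-fold difference, and Fn1 without EDB was 445 ± 71.5 and 212 ± 41.5, a 2.1-fold difference. Fn1 with EDA was 240 ± 51.2 and 28.7 ± 4.75, an 8.38-fold difference, and Fn1 without EDA was 641 ± 125 and 288 ± 64.0, a 2.23-fold difference. Both forms were therefore lower at 4 months, and the form that contains the exon was lower by more. Whether EDB and EDA sit on the same molecules cannot be read from counts per exon.

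**Figure D2:**
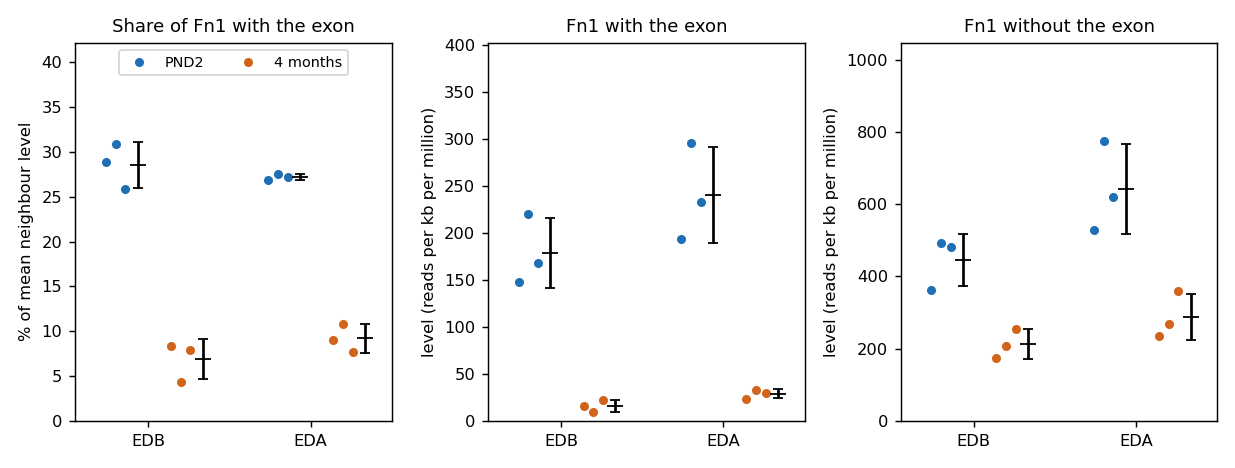
Estimated share of Fn1 with EDB or EDA, as a percentage of the mean level of the neighboring exons (left), and the level of Fn1 with (middle) and without (right) each exon, scaled as RPKM with the adjusted length. Points are libraries and bars the mean ± SD of 3, and the share drops from 25.9 to 30.9% to 4.36 to 8.38% for EDB and from 26.8 to 27.6% to 7.73 to 10.9% for EDA, and the level without the exon is also lower at 4 months.

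EDA and EDB did not keep the same proportion in every library. The relative use of EDA divided by that of EDB was 1.32, 1.34 and 1.39 at PND2 and 1.48, 3.45 and 1.37 at 4 months. Replicate 2 at 4 months stood apart from the other 5 libraries, with the lowest EDB use and the highest EDA use of its age. Its EDB value rests on 72 reads, it had the smallest library total (23810507), and the summed level of 5 adipocyte markers was 1386 RPKM in it against 338 and 320 in the other 4-month libraries. The part of these in its ratio was not tested. Without it, the log2 ratio of relative use was -1.81 for EDB and -1.73 for EDA, so both falls remained, and the difference in size between them largely went.

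**Figure D3:**
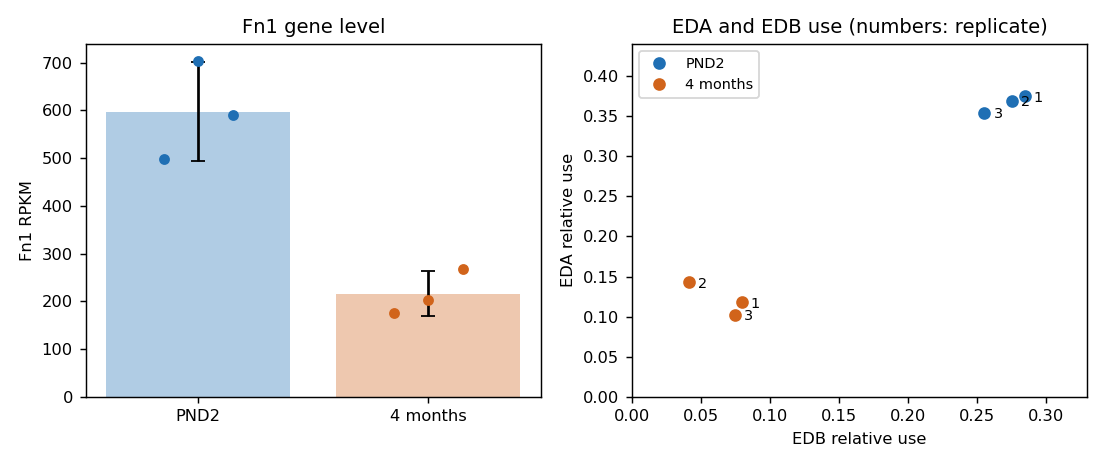
Left, Fn1 gene level in RPKM in each library (points), with the mean (bar) and SD of 3 libraries per age, 597 ± 104 at PND2 and 216 ± 47.3 at 4 months. Right, relative use of EDA (vertical axis) against that of EDB (horizontal axis) in the 6 libraries, numbered by replicate; the 3 PND2 libraries lie together at the upper right, and 4-month replicate 2 lies apart from the other 4-month libraries at the lowest EDB use.

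The V region, exon 40, was deposited as overlapping rows of 467, 392 and 107 bases that share their 3′ end and are used by 3, 2 and 2 of the full-length transcripts. Subtracting the reads of a shorter row from those of a longer one, a step added after the data were seen, left a 5′ segment of 75 bases at chr1:71597673-71597747 and a main segment of 285 bases at chr1:71597388-71597672. The 5′ segment is shown because it was the other alternative coding piece whose ages did not overlap.
V 5-prime segment: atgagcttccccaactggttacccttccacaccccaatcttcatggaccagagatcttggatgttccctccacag

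The 5′ segment had a relative use of 1.85, 1.70 and 1.55 at PND2 and of 1.41, 1.45 and 1.31 at 4 months. It was lower in every 4-month library than in any PND2 library, with means of 1.70 ± 0.151 and 1.39 ± 0.0715 (log2 ratio -0.29). The main segment had 1.58, 1.40 and 1.31 at PND2 and 1.35, 1.33 and 1.38 at 4 months, where the ages overlapped (log2 ratio -0.08). Within a library, the 5′ segment over the main segment was 1.17, 1.22 and 1.19 at PND2 and 1.06, 1.10 and 0.961 at 4 months. That ratio did not overlap either, and its means were 1.19 ± 0.0254 and 1.04 ± 0.0703. Against the mean of exons 39 and 41, the main segment stood at 1.01 to 1.07 at PND2 and at 0.946 to 0.974 at 4 months. The 5′ segment stood at 1.21, 1.3 and 1.20 times the mean of those exons at PND2 and at 1.03, 1.04 and 0.918 at 4 months. Both segments were thus near or above the level of their neighbors at both ages.

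Several deposited rows run from a coding exon into an intron, and the same subtraction gives the reads on the intronic piece. Such pieces lie outside the annotated coding exons, and their relative use was at most 0.0788 in any library. The piece upstream of EDA, chr1:71604097-71604969, covers 873 of the 1040 bases of intron 32, and held 1629, 1175 and 1284 reads at PND2 and 192, 104 and 154 at 4 months. Beside EDA means of 282 and 33.7 RPKM, this piece had means of 47.4 RPKM at PND2 and 5.66 RPKM at 4 months. Its relative use was 0.0788, 0.0470 and 0.0652 at PND2 and 0.0253, 0.0187 and 0.0177 at 4 months, with no overlap and a log2 ratio of the means of -1.63. The piece downstream of EDA, chr1:71602498-71602844, covers 347 of the 1162 bases of intron 33. Its relative use was 0.0367, 0.0307 and 0.0365 at PND2 and 0.0159, 0.0131 and 0.0130 at 4 months, again with no overlap and a log2 ratio of -1.31. The covered stretches on both sides of EDA thus held fewer reads per unit of Fn1 at 4 months.

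Other introns of Fn1 did not all do the same. A piece of 179 bases before exon 43, chr1:71590893-71591071, had a relative use of 0.0636, 0.0589 and 0.0476 at PND2 and 0.0595, 0.0484 and 0.0492 at 4 months. The ages overlapped there, with a log2 ratio of -0.11. A piece of 1070 bases after exon 6 had 58, 49 and 31 reads at PND2 and 9, 2 and 11 at 4 months, with a log2 ratio of -1.18 and no overlap. Of the remaining 2 pieces, 1 of 110 bases overlapped between the ages and 1 of 135 bases held 0 reads in every library. No deposited row lay in the introns that flank EDB.

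**Figure D4:**
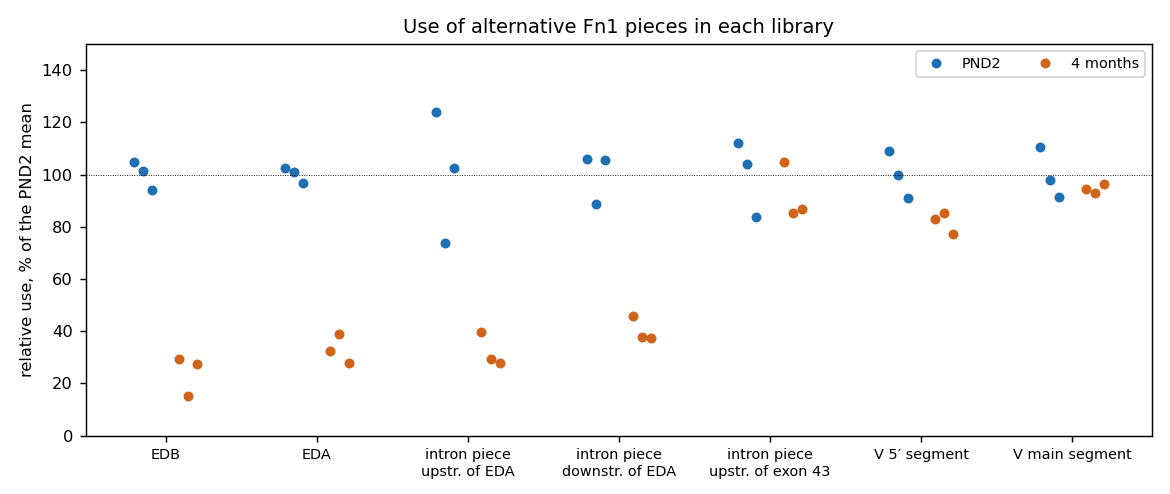
Relative use of EDB, EDA, 3 intronic pieces and the 2 V segments in each library (points; PND2 blue, 4 months orange), as a percentage of the PND2 mean of that piece, marked by the dotted line at 100. EDB, EDA and the intronic pieces on both sides of EDA drop together at 4 months, whereas the piece upstream of exon 43 and the V main segment overlap between the ages. Not all intronic pieces are drawn, and the piece after exon 6, which is not, was also lower without overlap (log2 ratio -1.18).

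The genes that bind, build on or splice fibronectin were taken as lists from general knowledge. Earlier results of these data were known when the lists were chosen, so the counts per list are a description. Gene levels were compared with limma on log2(RPKM + 0.1) over 25903 genes, with Benjamini-Hochberg adjustment and a 2-sided threshold of 0.05. On this scale fold changes of low genes are understated. Of all genes tested, 14.7% were higher and 21.1% lower at the later age, and the median gene changed by -0.14 on the log2 scale. P-values set the difference between the ages against the spread between pooled libraries, with a variance that limma moderates over all genes tested.

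Fibronectin receptors were mostly higher in the mature valve: 11 of 16 rose, 1 fell and 4 did not pass, with a median log2 fold change of 1.00. All 4 smooth muscle markers rose as well, with a median of 1.42 and summed levels of 7045 to 8127 RPKM at PND2 and 15929 to 26753 RPKM at 4 months, and their part in the receptor levels was not tested. Itga8, whose integrin α8β1 binds the RGD site of fibronectin, was 160, 176 and 169 RPKM at PND2 and 635, 497 and 469 RPKM at 4 months. It rose from 169 ± 8.01 to 533 ± 88.7 RPKM (log2 fold change 1.65, SE 0.13, limma adjusted p = 2.15e-04). Itga5, the α chain of the main fibronectin receptor α5β1, rose from 109 ± 8.13 to 162 ± 25.2 RPKM (limma adjusted p = 0.0135, but 0.0535 without PND2 replicate 3), and its partner Itgb1 stood at 746 ± 25.9 and 711 ± 68.9 RPKM (limma adjusted p = 0.678). Itgb5, an RGD-binding β chain that pairs with αv, rose from 121 ± 22.5 to 287 ± 34.4 RPKM (limma adjusted p = 0.00137).

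The receptors tied to the alternative regions went different ways. Itga4, whose integrin α4β1 binds the V region and also EDA, was 11.1, 20.8 and 15.4 RPKM at PND2 and 4.31, 3.89 and 3.01 RPKM at 4 months. It was the member of the list that fell (log2 fold change -2.02, SE 0.25, limma adjusted p = 0.00116). Itga9, whose integrin α9β1 binds EDA, rose from 73.9 ± 11.2 to 117 ± 11.3 RPKM (limma adjusted p = 0.00881). Tlr4, an innate immune receptor that responds to EDA, rose from 6.90 ± 1.07 to 14.8 ± 0.998 RPKM (limma adjusted p = 0.00145), while all 4 macrophage markers rose too.

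**Figure D5:**
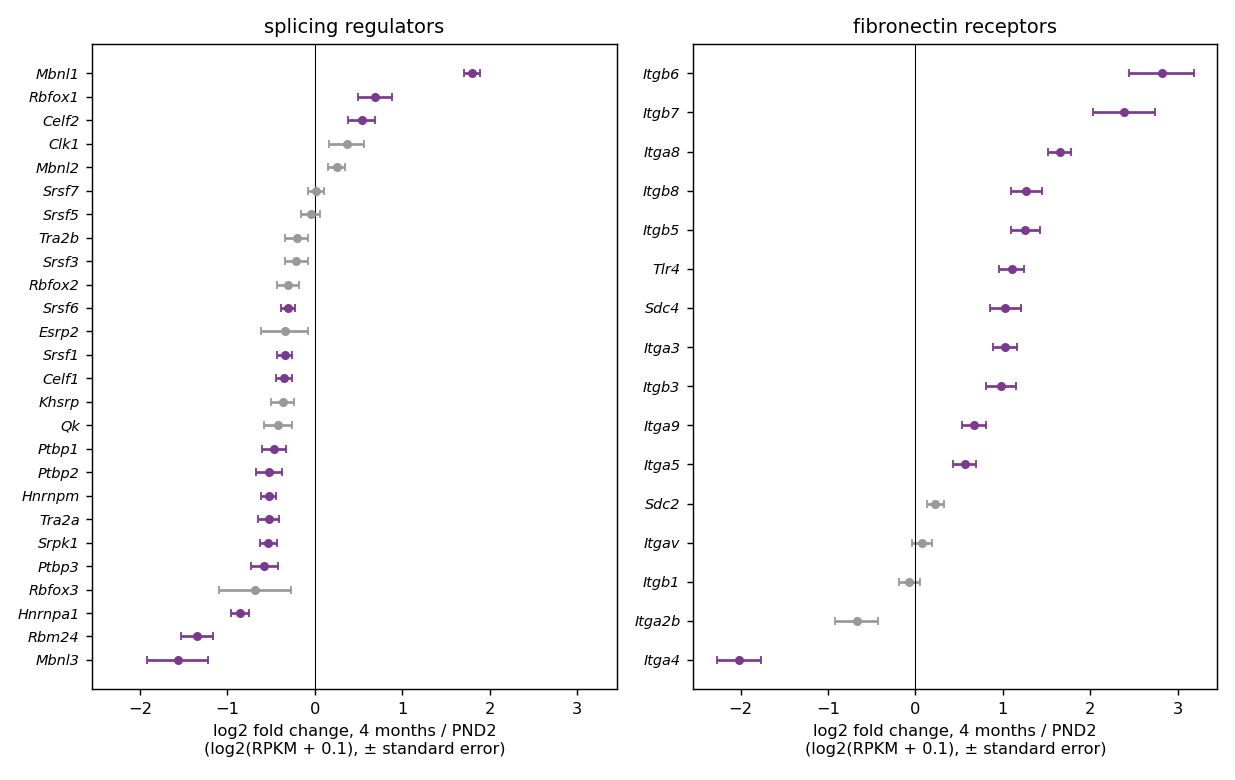
Log2 fold change at 4 months over PND2 (horizontal axis, log2(RPKM + 0.1), ± SE) of the 26 tested splicing regulators (left) and the 16 fibronectin receptors (right), purple where the limma adjusted p was under 0.05 and gray where it was not. Mbnl1 (1.79) leads the splicing regulators and 12 of them fell, while 11 receptors rose and Itga4 (-2.02) fell.

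Matrix partners of fibronectin were mostly lower, as Fn1 was: 11 of 18 fell, 3 rose and 4 did not pass, with a median log2 fold change of -0.58. Fbn2, the fibrillin of early microfibrils, was 85.1, 129 and 90.2 RPKM at PND2 and 0.271, 1.83 and 0.679 RPKM at 4 months (limma adjusted p = 1.91e-04). Tnc, the matricellular protein tenascin-C, which binds fibronectin, fell from 60.0 ± 14.5 to 9.38 ± 4.23 RPKM (log2 fold change -2.73, limma adjusted p = 9.31e-04). The fibulins diverged: Fbln2 went down from 314 ± 48.0 to 72.2 ± 7.73 RPKM (limma adjusted p = 1.02e-04), whereas Fbln1 rose from 82.8 ± 12.7 to 283 ± 38.1 RPKM (limma adjusted p = 2.52e-04). The fibrillar collagens Col1a1, Col1a2, Col3a1 and Col5a1 fell, with log2 fold changes between -1.35 and -0.56. The call of Col1a2 was lost with median scaling (limma adjusted p = 0.0561) and when any library other than PND2 replicate 1 was left out (limma adjusted p = 0.054 to 0.0816). Ltbp4, a latent TGF-β binding protein whose symbol is carried by 2 overlapping gene records, rose in the first record, with a log2 fold change of 0.78. The other record is not described here.

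Of 7 TGF-β ligands and receptors, 4 rose, 2 fell and 1 did not pass, with a median log2 fold change of 0.37. TGF-β1 is known to favor inclusion of EDA in cultured fibroblasts, and its gene Tgfb1 stood at 15.1 ± 1.38 and 16.6 ± 3.30 RPKM (limma adjusted p = 0.585). Tgfb2, a ligand needed for valve development, fell from 46 ± 7.18 to 24.6 ± 2.70 RPKM (limma adjusted p = 0.00296), whereas Tgfb3 rose from 77.0 ± 13.0 to 118 ± 15.4 RPKM (limma adjusted p = 0.0159). The receptors Tgfbr1, Tgfbr2 and Tgfbr3 rose and the endothelial co-receptor Eng fell (log2 fold change -0.64), as did all 5 endothelial markers. The count that rose was 2 without PND2 replicate 3 and 2 without 4-month replicate 3, where Tgfb3 (limma adjusted p = 0.0576 and 0.0565) and Tgfbr1 (0.0749 and 0.0707) lost their calls. Tgfbr1 also lost it without PND2 replicate 2 (limma adjusted p = 0.0629).

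Of 27 splicing regulators, 26 could be tested, and 12 fell, 3 rose and 11 did not pass, with a median log2 fold change of -0.35. Esrp1, an epithelial splicing factor, was not tested for its low values. Mbnl1, a muscleblind protein that drives adult splicing patterns in muscle, was 18.0, 15.6 and 17.2 RPKM at PND2 and 57.3, 59.7 and 59.6 RPKM at 4 months. It rose from 16.9 ± 1.22 to 58.9 ± 1.37 RPKM (log2 fold change 1.79, SE 0.09, limma adjusted p = 3.69e-05), the highest log2 fold change on the list. Rbm24, a muscle-enriched splicing factor, fell from 72.5 ± 5.79 to 29.1 ± 8.03 RPKM (log2 fold change -1.35, limma adjusted p = 0.00186), as did 3 of 5 cardiomyocyte markers.

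Srsf1, Srsf7 and Rbfox2, which have been studied at or near the fibronectin exons, moved less than Mbnl1 and Rbm24. Srsf1, an SR protein known to act at the EDA enhancer, was 83.6, 77.2 and 74.3 RPKM at PND2 and 62.4, 63.8 and 58.7 RPKM at 4 months (log2 fold change -0.35, SE 0.09, limma adjusted p = 0.0201). Its call was lost with median scaling (log2 fold change -0.22, limma adjusted p = 0.117), without PND2 replicate 2 (0.0556) and without 4-month replicate 3 (0.0766). Srsf7, also studied on EDA, stood at 85.5 ± 6.63 and 86.4 ± 2.02 RPKM (limma adjusted p = 0.9). Rbfox2, whose binding motif recurs in the intron that follows EDB, stood at 61.1 ± 9.86 and 48.9 ± 2.15 RPKM (log2 fold change -0.31, limma adjusted p = 0.108). Hnrnpa1, an hnRNP protein that often favors skipping of exons, fell from 187 ± 16.9 to 103 ± 7.17 RPKM (log2 fold change -0.85, limma adjusted p = 0.00108). Srpk1, the kinase that phosphorylates SR proteins, fell from 16.0 ± 0.630 to 11.1 ± 0.459 RPKM (limma adjusted p = 0.00659).

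The splicing counts were less settled than the exon values. With each library scaled by its median log2 ratio to the mean over genes, a step that took out a difference of -0.12 between the ages (4 months minus PND2, log2), 5 regulators were lower in place of 12. The count that fell was 6 without PND2 replicate 2, PND2 replicate 3 or 4-month replicate 3. The count that rose was 1 when any library other than PND2 replicate 1 was left out. Since relative use is taken within a library, the scaling of libraries does not alter it.

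The make-up of the tissue differed between the ages. Valve interstitial markers were high at both ages, and the 6 of them summed to 5913 to 6356 RPKM at PND2 and 7613 to 9626 RPKM at 4 months. The sum rose with Dcn and Lum, which passed the test, while Col1a1, Col3a1 and Postn fell, Vim did not pass (limma adjusted p = 0.0563), and the median log2 fold change of the list was -0.12. The 5 endothelial markers summed to 295 to 411 and 177 to 194 RPKM, and all 5 fell. The 4 smooth muscle markers rose, as given above with the receptors. The 5 cardiomyocyte markers summed to 6203 to 6500 and 3252 to 4598 RPKM, so heart muscle was present in the pools of both ages, and 3 of the 5 fell.

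Markers of fat cells, macrophages and red blood cells were also read. The 5 adipocyte markers summed to 63.8 to 147 and 320 to 1386 RPKM, and 4 of 5 rose. Nearly all of the PND2 sum was Fabp4 (147, 63.7 and 77.9 RPKM), which was not called (limma adjusted p = 0.953). Adipoq, Plin1, Cidec and Cfd had means of 0.107, 0.0324, 0 and 0.0118 RPKM at PND2. Their means at 4 months were 70.0, 23.9, 37.9 and 448 RPKM. The 4 macrophage markers summed to 48.4 to 62.0 and 113 to 138 RPKM, and all 4 rose, while the 3 erythroid markers overlapped (921 to 1294 and 371 to 1087 RPKM, 0 called). The 4 hepatocyte markers, which would accompany liver-made Fn1 RNA lacking both exons, summed to 0.938 to 1.20 and 0.218 to 0.773 RPKM and were near 0. No marker list was at 0 in every library. The part of these cell types in the level of Fn1 and in the use of EDB and EDA was not tested.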

How the data were processed

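Libraries were made from total RNA of 6 pools of aortic valves (3 at PND2, 3 at 4 months) with a stranded mRNA kit. They were sequenced with paired reads. After quality filtering and trimming, the authors mapped the reads to mm10 with TopHat2 2.1.0 and assigned them to Ensembl features in R 3.2.2. They deposited RPKM for each library, by gene and by exon. Library totals were inferred by taking the smallest nonzero product of RPKM and exon length in a library as a single read. Multiplying RPKM by length and these totals gave whole reads for 100% of values (within 0.001 reads for exons and 0.01 for genes). That is not a check against totals known from elsewhere.

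From these values relative use was computed over Fn1 rows of at least 30 bases. The background took genes with at least 5 such rows and a median exon RPKM of at least 1 in every library, and exons with at least 20 reads in all. Gene tests used limma 3.58.1 (eBayes with trend) in R 4.3.3 on genes that reached 0.1 RPKM in 3 libraries. The data.table package (version 1.17.8) loaded the tables. Other steps used Python 3.11.15 (pandas 2.3.3, numpy 2.4.6, matplotlib 3.10.9, scipy 1.17.1), and the statistics were tested on simulated data. EDB and EDA were identified by annotation, since 2 rows of 91 codons and 2 of 90 exist. Fn1, its exons and the gene lists were chosen with earlier results of these data known. The text names EDB, EDA, the V region, the end and flanking exons, the 5 most shifted exon rows in each direction (many overlapping, so given by exon), list genes and the genes most like Fn1. Alternatives were other reference exons, lengths, filters, scalings and tests, and each library left out.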

Additional observations from a re-analysis of the deposited data

How the results depend on the processing

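Under 6 other ways of setting the reference exons or lengths, the log2 ratio of relative use stayed between -1.60 and -1.56 for EDA and between -2.06 and -2.03 for EDB, and Fn1's own log2 ratio was -1.34 with median scaling and -1.33 with quantile normalization. Leaving out each library in turn gave -1.73 to -1.49, -2.23 to -1.81 and -1.66 to -1.34. The background depended on its thresholds. Exons lower at 4 months numbered 6464, but 3958 with a gene median of at least 5 RPKM, 2919 at 2-fold and 9633 to 10684 with a library left out. Exons higher numbered 6740, but 3875, 2855 and 8810 to 11169. With the unequal-variance test per gene, 6 receptors were higher, 1 matrix partner was higher and 4 were lower, 2 TGF-β genes were higher and 1 lower, and 5 splicing regulators were lower. Without a trend 2 receptors and 6 splicing regulators were lower, voom on recovered reads gave 2 lower receptors, and median scaling gave 5 lower splicing regulators. With a library left out, 2 to 4 TGF-β genes and 1 to 4 splicing regulators were higher and 6 to 12 splicing regulators were lower. Of the genes described, that unequal-variance test ended the calls of Itga5, Itga9, Tnc, Col1a1, Col1a2, Col3a1, Ltbp4, Tgfb3, Tgfbr2, Eng, Rbm24 and Srsf1. No trend and the replicate block each ended those of Col1a2, Tgfbr1 and Srsf1. The cause of these shifts was not tested. Same-numbered libraries had correlations of 0.0439, -0.0608 and -0.160 in their deviations from the age means. Those of different-numbered libraries ran from -0.176 to 0.233. No pairing by replicate number was seen, but so few libraries cannot show that there was none. With the replicate block, 1 splicing regulator was higher and 7 were lower. The 47 called genes of the lists gave 697 pairs of a gene and an alternative setting. In 579 pairs the call was kept, in 118 it was lost and in 0 the direction changed. At 4 months EDB rested on 72 to 204 reads, and the intronic pieces after exon 6 and downstream of EDA on 2 to 11 and 29 to 48.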

Other observations

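The genes whose log2(RPKM + 0.1) followed the level of Fn1 most closely over the 6 libraries, among 10612 protein-coding genes with a mean of at least 5 RPKM, were Col9a1 (Pearson r = 0.999), Tnc (0.998), Tctn3 (0.997), Cenpt (0.997) and Plscr1 (0.997). Col9a1, a chain of the cartilage collagen IX, was 13.9, 33 and 22.9 RPKM at PND2 and 0.977, 1.33 and 3.25 RPKM at 4 months, in the order of Fn1 in every library. The use of EDA was followed most closely by Whsc1, Glrx3, Rhobtb3, Tox3 and Cpa3, and that of EDB by Ppib, Psma5, Clic1, Gramd1a and Gm3164. Ppib, an endoplasmic reticulum prolyl isomerase that takes part in collagen folding, was 699, 689 and 681 RPKM at PND2 and 493, 399 and 474 RPKM at 4 months (r = 0.999). These are descriptions over 6 libraries in 2 age groups, and a gene that differs between the ages has a high r for that reason alone. The 5 genes named for EDA and the 5 named for EDB were different genes.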
